A study of Homo sapiens with 6 samples.

Results

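The replication-dependent histone genes are 69 of 19821 protein-coding genes in the RefSeq annotation of the human genome, GRCh38.p14. They were chosen by symbol: H1-1 to H1-6, and H2AC, H2BC, H3C or H4C followed by a number. The symbols, not peak values, decide membership. Of the 69 genes, 55 lie in 3 clusters on chromosome 6 and 11 in a cluster on chromosome 1, where a cluster is a run of these genes with gaps under 500 kb. The remaining 3 are H2AC25 and H2BC26, a pair farther along chromosome 1, and H4C16 on chromosome 12.

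The study used ChIP-seq to map acetylated NEIL1 (AcNEIL1) across the genome of HCT116 cells, an established line from a human colorectal adenocarcinoma. NEIL1 is a DNA glycosylase that removes oxidized bases in the first step of base excision repair, and AcNEIL1 is its lysine-acetylated form, recognised here by a rabbit antibody made for the purpose. All 6 libraries come from exponentially growing cells of this 1 line, with no treatment named in the labels: 3 ChIP libraries (replicates 1, 2 and 3) and 3 input libraries, each used as the peak caller's control for the ChIP library of the same number. The labels do not say that the replicates are separate cultures, so p-values measure only the spread between these samples, which may be technical. Depth was 31921768, 28814429 and 35222701 ChIP tags in replicates 1, 2 and 3, with 39898, 60233 and 49731 deposited peaks.

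Replication-dependent histone genes supply the histones that package newly copied DNA and are transcribed mainly in S phase. They are short, have no introns in their usual transcripts and lie close together, often in divergent pairs that share the sequence between them; their mRNAs end in a stem-loop bound by SLBP in place of a poly(A) tail. H2A, H2B, H3 and H4 form the nucleosome core, and H1 binds the linker DNA where it enters and leaves that core.

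The promoters of 3 genes of the chromosome 1 cluster are shown because each has a copy on the opposite arm of an inverted repeat, and because the peaks of these arms carry most of the calls on that chromosome. These are the 250 bases before the annotated start, 5′ to 3′ on the gene's strand, from RefSeq (GRCh38.p14): H4C14 at chr1:149832407-149832656 on the plus strand, H3C14 at chr1:149841209-149841458 on the minus strand and H2AC18 at chr1:149842751-149843000 on the minus strand. Capitals mark 4 motifs searched on either strand: the TATA box core TATAAA, the CCAAT box, the octamer written ATTTGCAT, and the GC box core GGGCGG. The octamer occurs in none of the 3. Read on the other strand, the CCAAT box appears as ATTGG, and the GC box core as CCGCCC. In H3C14 a CCGCCC runs into a CCAAT.
H4C14: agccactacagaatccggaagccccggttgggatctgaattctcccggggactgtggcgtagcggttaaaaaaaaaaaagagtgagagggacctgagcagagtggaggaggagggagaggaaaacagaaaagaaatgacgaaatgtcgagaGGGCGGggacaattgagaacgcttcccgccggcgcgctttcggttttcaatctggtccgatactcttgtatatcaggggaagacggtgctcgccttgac
H3C14: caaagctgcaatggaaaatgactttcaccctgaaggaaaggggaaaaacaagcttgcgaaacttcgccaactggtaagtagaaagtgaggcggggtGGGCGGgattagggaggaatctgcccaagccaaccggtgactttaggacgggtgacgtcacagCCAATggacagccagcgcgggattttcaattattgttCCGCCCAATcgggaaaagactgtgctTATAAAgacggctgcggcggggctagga
H2AC18: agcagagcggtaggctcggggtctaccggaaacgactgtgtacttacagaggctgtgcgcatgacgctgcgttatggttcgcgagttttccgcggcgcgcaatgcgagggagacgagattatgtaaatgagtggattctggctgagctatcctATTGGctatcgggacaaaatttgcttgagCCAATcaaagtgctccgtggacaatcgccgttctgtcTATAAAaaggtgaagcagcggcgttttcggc

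The H4C14 sequence was identical to that of H4C15 in 250 of 250 bases. H3C14 and H3C15 matched in 246 of 246 bases after a shift of 4, and H2AC18 and H2AC19 in 249 of 249 after a shift of 1. H3C13, the other H3 gene of the cluster, matched H3C14 in 92 of 247 bases at the best shift. The table held promoters for 64 of the 69 genes. No peak of any replicate overlapped the 250 bases before the start in any of the 64, and the closest peak lay 54 bp away. Over all protein-coding genes in the table, a peak overlapped this stretch in 2.92%, 6.11% and 3.71% of promoters in replicates 1, 2 and 3, and in 7.61% in any replicate.

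The 64 promoters differed in letters from those of protein-coding genes at large, of which the table holds 15813. TATAAA, the core of the TATA box, occurred in 42 of 64 histone promoters (65.6%, against 9.25% of all). CCAAT, the motif bound by NF-Y, occurred in 54 (84.4%, against 34.4%), including every one of the H1, H2A, H2B and H3 promoters listed but only 3 of 13 H4 promoters. ATTTGCAT, the octamer bound by POU2F1 and known from H2B promoters, occurred in 26 (40.6%, against 1.66%): 14 of 18 for H2B and 11 of 16 for H2A. GGGCGG, the core of the GC box, was less frequent than in all promoters, at 18 of 64 (28.1%, against 56.0%). The windows are not all separate, so a site can count for several genes. Divergent pairs such as H2AC11 and H2BC11 have nearly the same window, and H3C4 and H2AC7 have the same window. The counts by family are therefore not independent of each other. A match describes the letters of these windows and does not show a bound site.

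A histone gene was counted in a replicate when at least 1 peak touched its body extended by 5 kb on either side, and was called when this held in at least 2 of 3 replicates. Most histone genes had no AcNEIL1 peak. In replicates 1, 2 and 3 there were 16, 12 and 21 of 69 genes with a peak in this window (23.2%, 17.4% and 30.4%; mean 23.7% ± 6.54, SD, n = 3), against 36.2%, 42.8% and 38.5% of all protein-coding genes. All 3 replicates placed the histone genes below that background. Called were 14 genes (20.3%), against 38.4% of all protein-coding genes. A peak in all 3 replicates was found at 8 genes, against a background of 28.3%, and 42 genes had none in any replicate (60.9%, against 49.1%).

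Gene length decides how much sequence a window covers, and the histone genes are short, with a median of 494 bp and 8 genes over 1000 bp. Among protein-coding genes up to 1000 bp, 12 of 61 histone genes were called (19.7%), against 58 of 448 other genes (12.9%). Of these 12, 5 are copies in the inverted repeat on chromosome 1 and share a few peaks. Without them 7 of 56 were called (12.5%), about the share of the other short genes. All 5 copies were called, so leaving them out could only lower the share. This was chosen after the data were seen, and no genes were left out of the comparison group. Of the genes no longer than the longest histone gene, H2BC18 at 29682 bp, 36.9%, 45.5% and 40.2% had a window peak in replicates 1, 2 and 3, and 40.4% were called. The bar plot of shares sets these groups side by side.

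**Figure D1:**
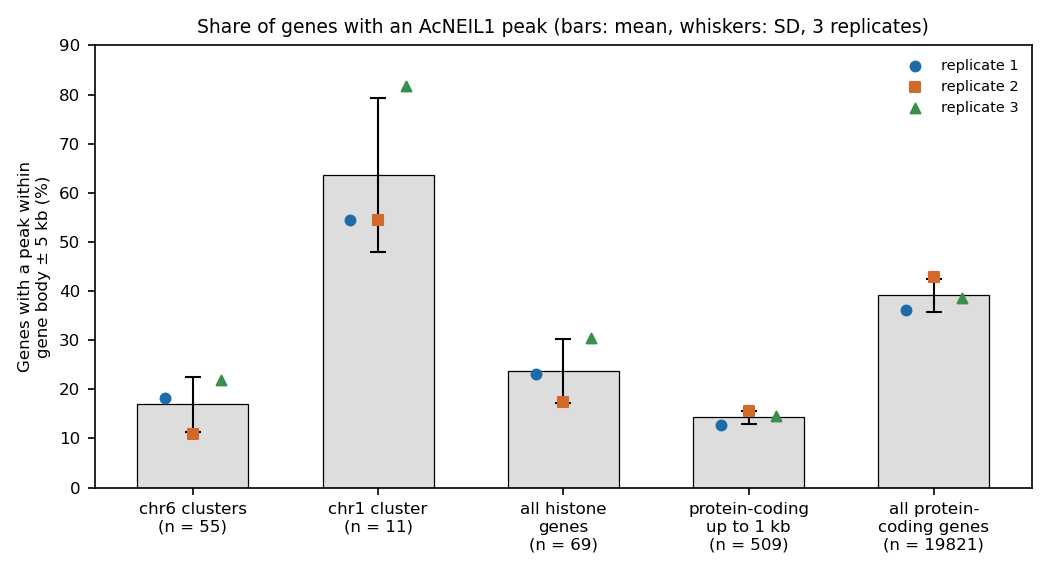
Percent of genes with a peak within the gene body extended by 5 kb, for the histone genes of the chromosome 6 clusters, those of the chromosome 1 cluster, all 69 histone genes, protein-coding genes up to 1 kb long and all protein-coding genes; points are the 3 replicates, bars their mean and whiskers the SD. The chromosome 1 cluster stands highest at 63.6% ± 15.7 and the chromosome 6 clusters lie at 17.0% ± 5.55, between the short genes at 14.3% ± 1.39 and all protein-coding genes at 39.2% ± 3.35.

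The chromosome 1 cluster held 6 of the 8 genes with a window peak in all 3 replicates. The cluster spans 115.277 kb (chr1:149777689-149892965, with 5 kb added at each end) and contains 11 genes, of which 6 form the inverted copies: H4C14, H3C14 and H2AC18 on the left arm and H2AC19, H3C15 and H4C15 on the right. All 6 had a window peak in every replicate. Of the other 5, H2BC21, H2AC20 and H2AC21 had a peak only in replicate 3, and H2BC18 and H3C13 had none.

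Fold enrichment in what follows is the authors' value for the strongest peak in the window, the ratio of ChIP pileup to local background with 1 added to each. For H4C14, an H4 gene of 396 bp, it was 4.19, 4.35 and 5.01 in replicates 1, 2 and 3 (4.52 ± 0.436, SD, n = 3). H3C14 and H2AC18 carry the same 3 values, because the same peaks lie in their windows. These genes share their evidence and are not independent of each other.

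On the right arm each value was at or below that of the left arm in the same replicate. H4C15 had 3.46, 4.35 and 4.51 (4.11 ± 0.565), H3C15 had 3.46, 3.13 and 4.51 (3.70 ± 0.724) and H2AC19 had 3.25, 3.13 and 4.51 (3.63 ± 0.769). The annotated body of H4C15 is 16753 bp long and runs across H2AC19 and H3C15, so a peak over that body need not lie at the short histone unit. H2BC21, H2AC20 and H2AC21 had a fold of 3.74 in replicate 3, all from 1 peak that lies 2.791 kb from H2AC21. H2BC18 and H3C13 were 12.788 kb and 11.465 kb from the nearest peak of any replicate.

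Near the axis of the inverted repeat, the midpoint between copies at position 149846906, both arms carried peaks at like distances. Within 15 kb of the axis the 3 lists held 15 peaks, and 10 of them overlapped the mirror image of a peak of the same replicate on the other arm: 4 of 5 peaks in replicate 1, 3 of 5 in replicate 2 and 3 of 5 in replicate 3. The 15 kb limit was not set in advance. The 15 peaks lay between 7.45 and 11.2 kb from the axis. The gene starts lay at 4.16 kb (H2AC18), 5.70 kb (H3C14) and 14.2 kb (H4C14), so these peaks fell between H3C14 and H4C14 on the left and on the matching stretch inside the H4C15 body on the right. Each replicate had further peaks beyond the H4 starts, between 15.7 and 19.5 kb from the axis. Most of these had no mirror image, and only replicate 2 held a mirrored pair there. The right peak of that pair gave H4C15 its fold of 4.35 in replicate 2. How reads that align equally well to both copies were placed is not given in the sources used here, and its part in these values was not tested.

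**Figure D2:**
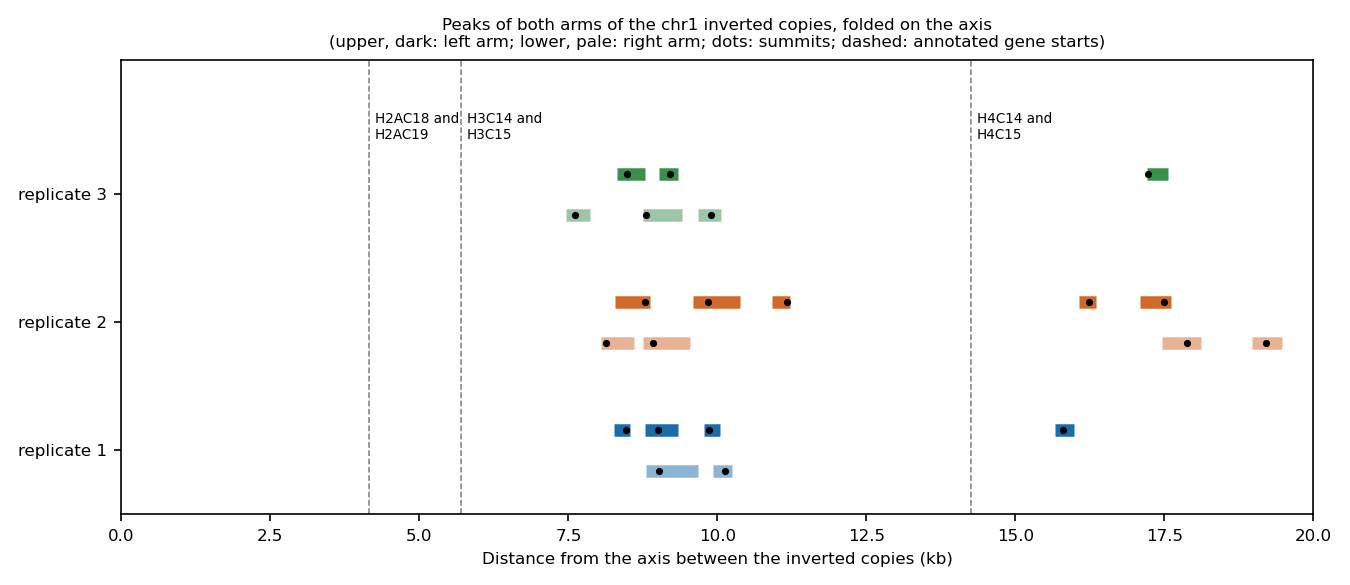
Peaks of both arms of the chromosome 1 inverted copies, plotted by distance in kb from the axis, with 1 row pair per replicate (dark, left arm; pale, right arm); dots are summits and dashed lines the annotated gene starts. In every replicate, peaks of both arms lie between 7.45 and 11.2 kb, between the starts of the H3 and H4 copies. Further peaks lie between 15.7 and 19.5 kb, beyond the H4 starts and mostly without a mirror image. No peak covers a dashed line.

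The map of the clusters places these peaks in their surroundings. In the 40.0 kb around the axis (20 kb on each side) there were 150.0, 225.0 and 150.0 peaks per Mb, against 26.6, 13.3 and 39.9 per Mb in the rest of the span. This window was not set in advance and was drawn around the copies that carry most of the calls, so the contrast is partly built in. Over the whole cluster the density was 69.4, 86.7 and 78.1 peaks per Mb (78.1 ± 8.67), against 21.2 ± 4.59 on chromosome 1 as a whole. The chromosome 6 clusters had 13.0, 11.6 and 10.1 peaks per Mb (11.6 ± 1.45), against 9.94 ± 1.69 on chromosome 6 as a whole. By replicate, chromosome 1 as a whole had 16.5, 25.7 and 21.4 peaks per Mb, and its cluster was denser in all 3 replicates. Chromosome 6 as a whole had 8.28, 11.7 and 9.86 per Mb. Its clusters were denser than that in replicates 1 and 3 and slightly less dense in replicate 2.

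**Figure D3:**
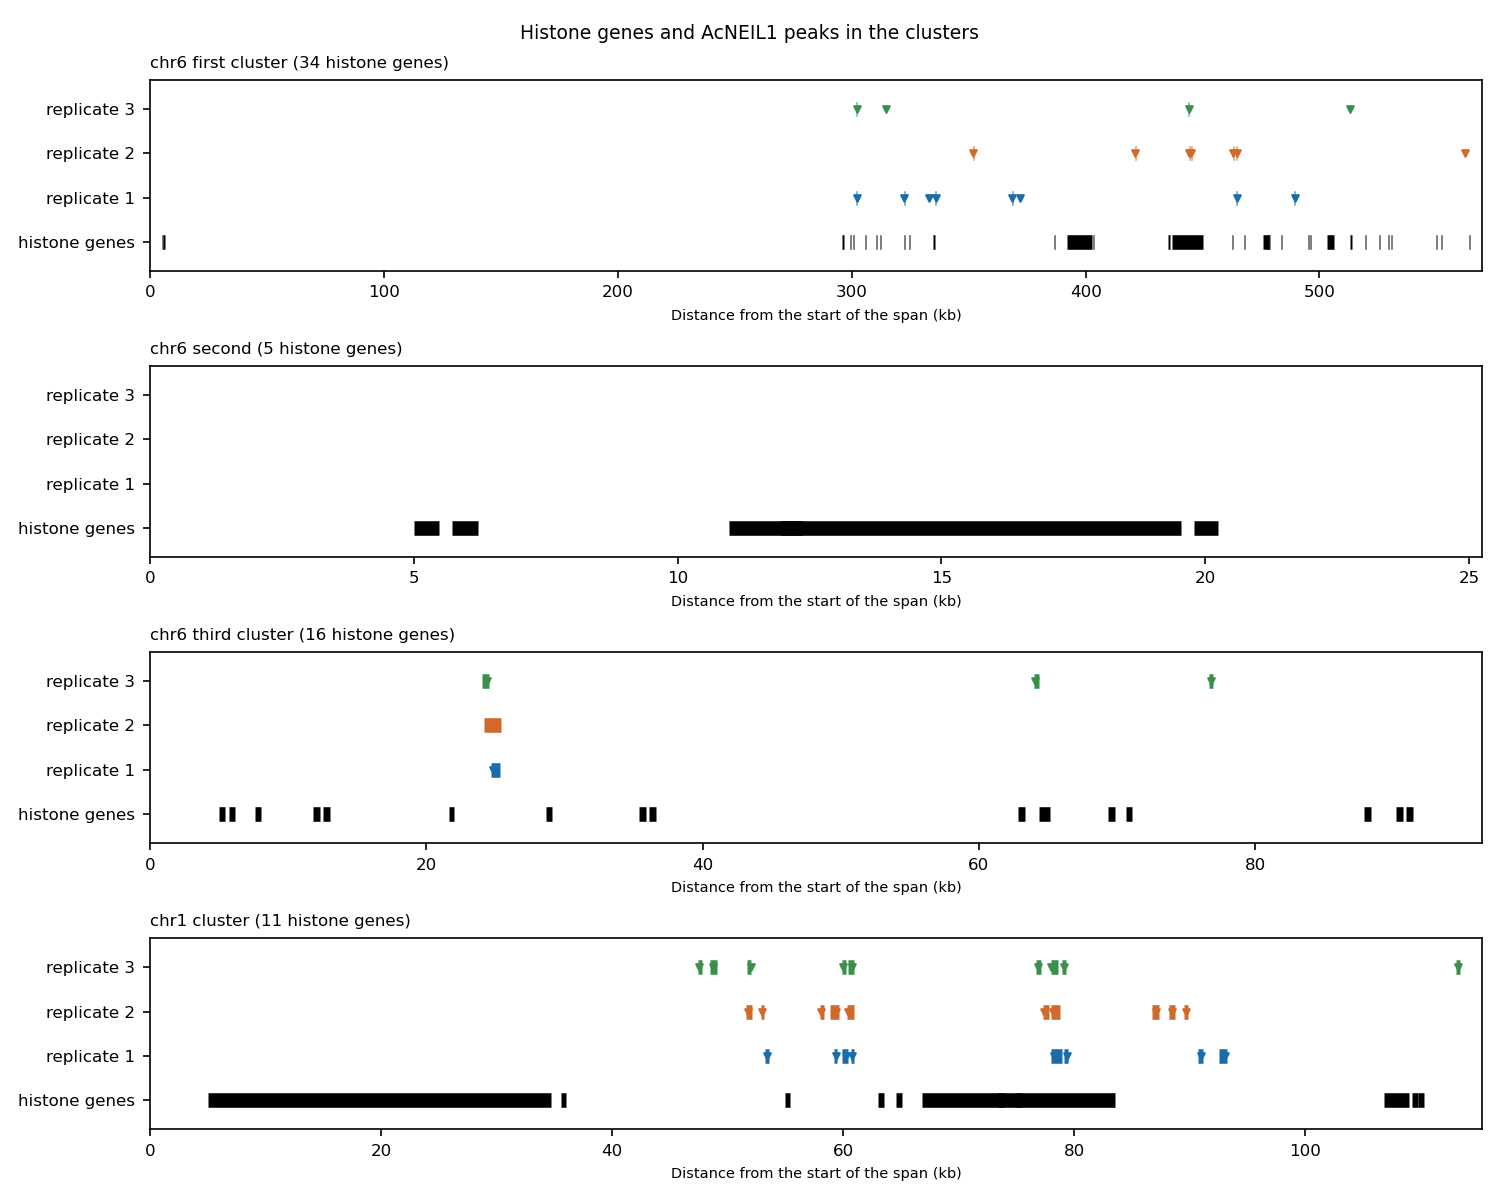
Positions of histone genes (black) and of the peaks of each replicate (coloured blocks, summits as triangles) in kb from the start of each cluster span. Peaks gather around the middle of the chromosome 1 cluster, the second chromosome 6 cluster has none, and in the first chromosome 6 cluster no peak lies before H4C1.

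On chromosome 6 the first cluster holds 34 genes in 569.472 kb (H2AC1 to H4C8), the second 5 genes in 25.247 kb (H2BC11 to H2AC12) and the third 16 genes in 96.413 kb (H2BC13 to H2BC17). Window peaks were found at 8, 4 and 7 genes of the first cluster in replicates 1, 2 and 3, at none of the second, and at 2, 2 and 5 of the third. Called were 6 genes of the first cluster and 2 of the third. The genes farthest from any peak were H2AC1, the testis H2A gene at the start of the first cluster (296.413 kb), H2BC11 in the second (114.407 kb) and H2BC13 in the third (18.584 kb). H4C16 on chromosome 12 lay 515.338 kb from its nearest peak.

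Linker histones come first. Of the 6 H1 genes, all on chromosome 6, H1-2 had a window peak in replicate 1, H1-3 and H1-5 in replicate 3, and none was called. The peak at H1-2 had a fold of 3.60 and lay 423 bp upstream of the gene. The peak at H1-3 had a fold of 3.97 and that at H1-5 a fold of 3.50, and both covered the 3′ end of the gene. H1-6, the testis H1 gene, lay 14.182 kb from its nearest peak, the farthest of the 6.

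Among H2A genes, the partners of H2B in the core, none on chromosome 6 was called. H2AC4 (fold 3.97) and H2AC16 (fold 3.50) had a window peak in replicate 3 only. Among H2B genes on chromosome 6, H2BC5 and H2BC6 were called and H2BC3 had a peak over its body in replicate 1 only (fold 3.48). H2BC5 had no window peak in replicate 1, a fold of 5.19 in replicate 2 and of 3.84 in replicate 3. The value of 5.19 was the highest in any cluster, and 3.92% of all peaks of replicate 2 were at least as strong. The H2BC5 body is annotated over 13229 bp, and its peaks lay inside it, over the lncRNA H2BC6-AS1 and the pseudogene LARP1P1.

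H2BC6, of 470 bp, had a fold of 3.60 in replicate 1, 4.11 in replicate 2 and no window peak in replicate 3. The replicate 2 peak of 4.11 covered the gene. H4C4, on the other side of the same stretch, has the same folds in its window, with the nearest peak 2.926 kb away.

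H3 and H4 form the tetramer at the centre of the core. H3C1, H4C1 and H4C2 were called from 1 shared region (chr6:26022975-26023406), with a fold of 4.08 in replicate 1, no peak in replicate 2 and 3.50 in replicate 3. The region lay 925 bp from H4C1. H3C2 (fold 3.97, replicate 3), H3C3 (3.48, replicate 1), H3C11 (3.50, replicate 3) and H4C8 (3.38, replicate 2) had a window peak in 1 replicate each.

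H4C11 and H4C12, in the third cluster, were the 2 chromosome 6 genes with a window peak in all 3 replicates. Both rest on 1 region between them (chr6:27826513-27827852), with folds of 3.09, 2.53 and 3.37 in replicates 1, 2 and 3 (3.00 ± 0.428, SD, n = 3). Its pileup was 27, 44 and 26.72 tags, and the local background under it was 8.07, 16.8 and 7.22 tags, against medians of 4.94, 5.34 and 4.48 over all peaks. The region stood on a higher background than most peaks in every replicate, and the part of that background in the call was not tested.

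**Figure D4:**
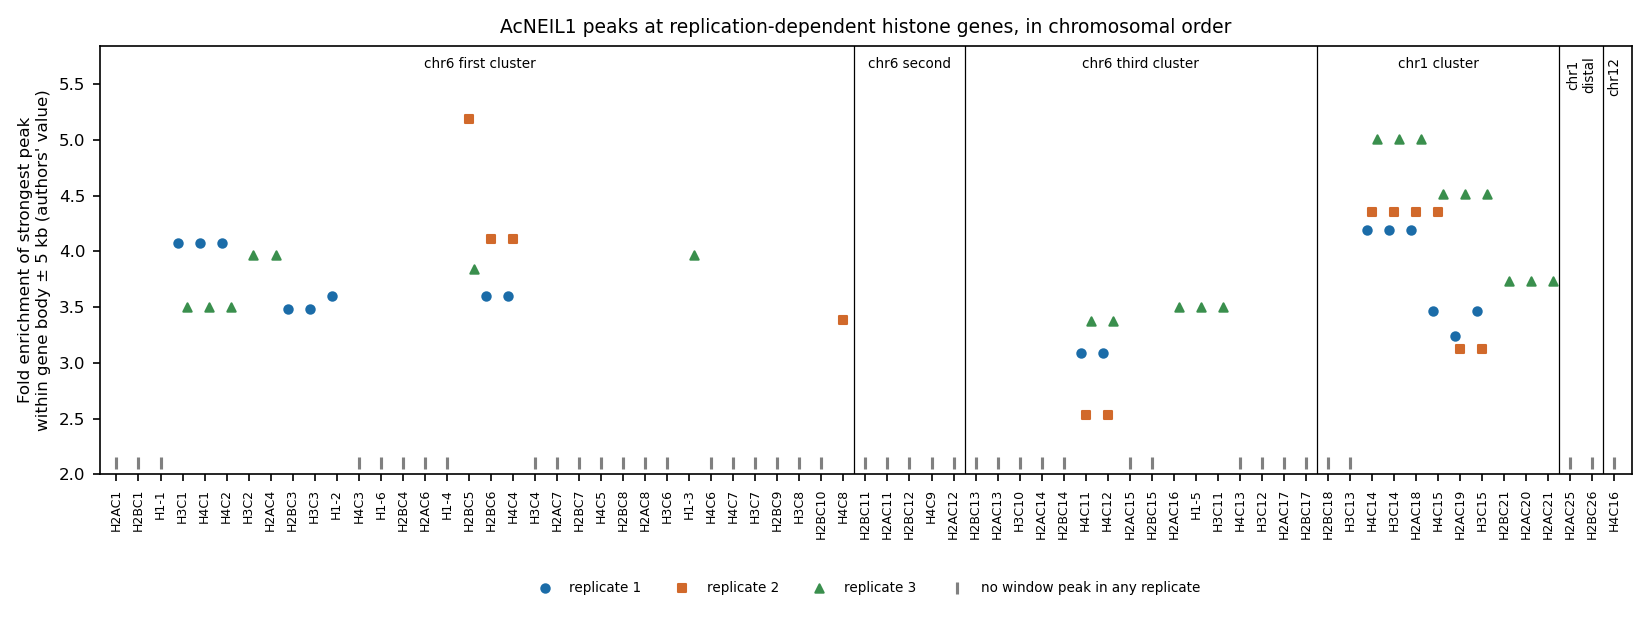
Fold enrichment of the strongest peak within the gene body extended by 5 kb (the authors' value, vertical axis starting at 2) for each of the 69 histone genes in chromosomal order, by replicate; grey ticks mark the 42 genes without a peak in any replicate. Neighbouring genes at the same height share a peak, and only the chromosome 1 cluster and the H4C11 and H4C12 pair show all 3 symbols.

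By family, the counts in replicates 1, 2 and 3 were 1, 0 and 2 of 6 H1 genes, 2, 2 and 6 of 17 H2A genes, 2, 2 and 2 of 18 H2B genes, 4, 2 and 5 of 13 H3 genes, and 7, 6 and 6 of 15 H4 genes. Called were 7 of 15 H4 genes (46.7%), 3 of 13 H3 genes (23.1%), 2 of 17 H2A genes (11.8%), 2 of 18 H2B genes (11.1%) and none of the H1 genes. H4 genes had the largest share in every replicate, but their calls are not separate evidence: on chromosome 6, 5 of 12 were called (H4C1, H4C2, H4C4, H4C11 and H4C12), from peaks that other genes share. The difference between families was not tested.

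The share of genes with a window peak was lower on chromosome 6 than in the chromosome 1 cluster in all 3 replicates. Chromosome 6 had 10, 6 and 12 of 55 genes (18.2%, 10.9% and 21.8%) and chromosome 1 had 6, 6 and 9 of 11 (54.5%, 54.5% and 81.8%). The difference, chromosome 6 minus chromosome 1, was -36.4, -43.6 and -60.0 percentage points (mean -46.7 ± 12.1, SD, n = 3; exact two-sided sign-flip permutation p = 0.25, the smallest that 3 replicates allow, and 0.333 after Benjamini-Hochberg adjustment over 4 such tests). Neighbouring genes count the same peaks: the calls came from 6, 6 and 6 different peaks on chromosome 6 and from 6, 9 and 7 on chromosome 1.

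Without the 6 inverted copies the other 5 chromosome 1 genes had 0, 0 and 3 with a window peak, and the difference was 18.2, 10.9 and -38.2 points (mean -3.03 ± 30.7, SD, n = 3; exact p = 1). The sign turned in replicates 1 and 2. This removal was chosen after the data were seen. All 6 copies had a window peak in every replicate, so leaving them out could only lower the chromosome 1 share. With the window narrowed to 1 kb it was -2.42 points, and with the 5000 strongest peaks of each list -8.48. Each of these settings can only remove genes or calls, so they do not show what the difference between the clusters rests on.

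Few peaks lay close to the genes themselves. Within 1 kb of the gene body a peak was found at 5, 3 and 6 of 69 genes in replicates 1, 2 and 3, against 28.7%, 34.5% and 30.2% of all protein-coding genes. In any replicate there were 9 such genes: H1-2, H1-3, H1-5, H2AC16, H2BC3, H2BC5, H2BC6, H4C1 and H4C15 (13.0%, against 41.5% of all protein-coding genes). Among the other genes up to 1000 bp the share was 10.0%, but the 9 include H2BC5 and H4C15, which are longer than that. In at least 2 replicates there were 4, H2BC5, H2BC6, H4C1 and H4C15 (5.80%, against 30.0%). The shares of all protein-coding genes are not matched for length: their median is 24.5 kb, against 0.494 kb for the histone genes. A peak touched the body itself in 6 genes, among them H2BC5 and H4C15 with their long bodies. The matching share of all protein-coding genes was not counted, so no comparison is drawn.

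The ends of the histone genes were compared with the spacer between them. Ends are the 1 kb on either side of both gene ends, and spacer is the cluster span outside histone gene bodies and ends. On chromosome 6 the spacer includes the bodies of other protein-coding genes. Peaks covered 0.559%, 0.399% and 0.578% of the ends (0.512% ± 0.0981) and 0.877%, 1.11% and 0.601% of the spacer (0.862% ± 0.254). The difference, ends minus spacer, was -0.350 ± 0.344 percentage points (SD, n = 3; exact two-sided sign-flip permutation p = 0.25, adjusted 0.333), below 0 in 3 of 3 replicates.

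The chromosomes are given apart. In the chromosome 1 cluster no peak touched the 24.874 kb of ends, while 4.70%, 7.70% and 4.56% of the spacer was covered (difference -5.65 ± 1.77; exact p = 0.25, adjusted 0.333). In the chromosome 6 clusters ends were covered at 0.622% ± 0.119 and spacer at 0.409% ± 0.158 (difference 0.164, -0.000935 and 0.474, mean 0.212 ± 0.241, exact sign-flip p = 0.5, adjusted 0.5), so the replicates differed in sign there. Of this spacer, 191.698 kb were bodies of other protein-coding genes, covered at 0.122% ± 0.211. Without these and 1.063 kb near tRNA genes, the spacer was covered at 0.597%, 0.749% and 0.350% (0.566% ± 0.201). The ends, at 0.679%, 0.485% and 0.701%, were above that in replicates 1 and 3 and below it in replicate 2. With 3 replicates this test cannot fall below 0.25, so it could not establish a difference on either chromosome. The interior of long gene bodies, 65.043 kb in all and most of it in H2BC18, H4C15, H2BC5, H2BC4 and H2BC12, was covered at 2.81% ± 0.854.

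Summits were also counted by distance. On chromosome 1 there were none within 1 kb of a gene end, 9.38 ± 4.06 per 100 kb at 1 to 2 kb, 17.5 ± 2.91 at 2 to 5 kb and 3.98 ± 1.38 at 5 to 20 kb. On chromosome 6 there were 1.43 ± 0.496 per 100 kb within 1 kb, 3.34 ± 0.825 at 1 to 2 kb, 0.800 at 2 to 5 kb in each replicate and 2.44 ± 0.815 at 5 to 20 kb. No summit fell in the 257.148 kb of the chromosome 6 clusters that lie over 20 kb from a histone gene. Of the 26 merged peak regions within 5 kb of a histone gene, 10 touched a gene body, 8 lay upstream of the nearest gene, 7 downstream, and 1 lay next to a gene whose strand was not listed. Most of those touching a body lay inside the long bodies of H4C15 and H2BC5.

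**Figure D5:**
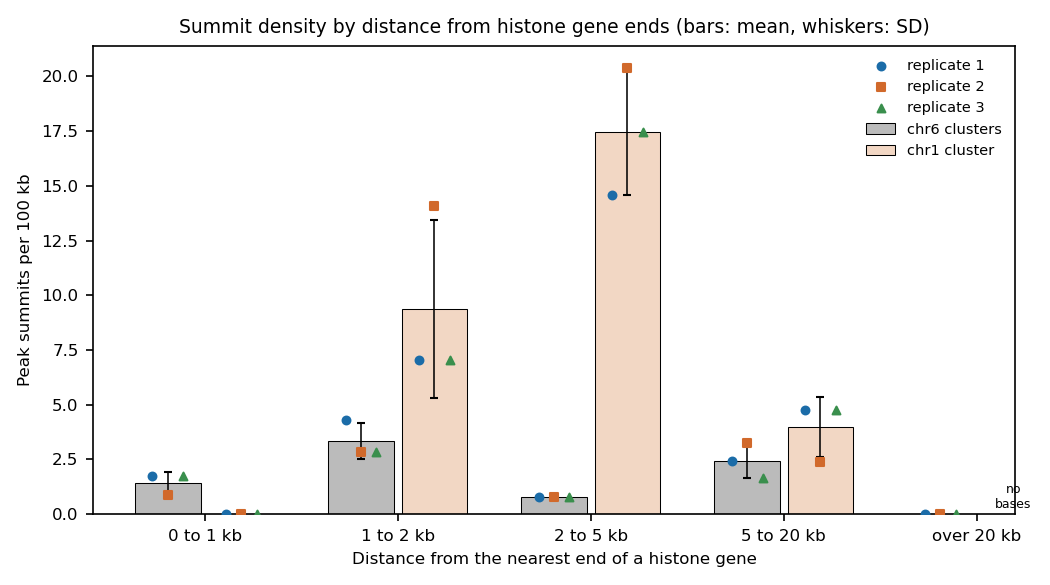
Peak summits per 100 kb by distance from the nearest end of a histone gene, for the chromosome 6 clusters and the chromosome 1 cluster; points are the 3 replicates, bars their mean and whiskers the SD. On chromosome 1 the density is 0 within 1 kb and highest at 2 to 5 kb (17.5 ± 2.91), and on chromosome 6 it is highest at 1 to 2 kb (3.34 ± 0.825).

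Most merged peak regions in the clusters were seen in 1 replicate only, as were most in the genome (58411 of 85534). The 3 lists merged into 37 regions in the cluster spans, of which 28 had a peak in 1 replicate, 6 in 2 and 3 in all 3. The share with at least 2 replicates was 24.3%, against 31.7% of the 85534 merged regions of the genome. It was 4 of 19 regions on chromosome 6 (21.1%) and 5 of 18 on chromosome 1 (27.8%).

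Besides the region between H4C11 and H4C12, the regions of all 3 replicates were a pair on the arms of the chromosome 1 repeat. The left one (chr1:149837566-149838637) lies 2050 bp downstream of H3C14, with a strongest-peak fold of 4.19, 3.68 and 5.01 (4.29 ± 0.674). The right one (chr1:149855654-149856576) lies inside the H4C15 body, with 3.25, 2.80 and 3.83 (3.29 ± 0.516). Replicate 2 had the fewest histone genes with a window peak, 12 against 16 and 21, but the most different peaks in those windows, 15 against 12 in replicate 1 and 13 in replicate 3.

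The 51 peaks of the cluster spans were weak in pileup and ordinary in fold. The median fold was 3.60, 3.46 and 3.74 in replicates 1, 2 and 3, against 3.42, 3.40 and 3.61 over all peaks. The median pileup was 15, 16 and 15.27 tags, against 20, 21 and 19.08. A -log10 q of 5 or more was reached by 2 of 17, 6 of 18 and 3 of 16 peaks (11.8%, 33.3% and 18.8%, against 28.6%, 40.9% and 28.8% of all peaks). The local background lay within 2% of the lowest value in its list, 3.13 ± 0.0353 tags (SD, n = 3), under 8, 10 and 7 of these peaks, against 10.0%, 3.74% and 11.7% of all peaks. On that floor a pileup of 14 tags gave a fold of 3.60, as at H1-2 in replicate 1.

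Genes outside the clusters that serve the same biology were counted in the same window, from 3 lists. Of 24 matched genes listed as replication-independent histones, 5 were called (20.8%), against 38.4% of all protein-coding genes. These genes are short, with a median of 2.35 kb, so that background is not matched for length. Nor is it matched for chromosome. Those on the X chromosome (H2AB1, H2AB2, H2AB3, H2AL3, H2AP, H2BW1 and H2BW2) had no peak nearer than 234.417 kb in any replicate. Of 24 genes of histone mRNA synthesis and processing 4 were called (16.7%), and of 23 histone chaperones 4 (17.4%). The share was near that of the 69 histone genes in each list, although the processing and chaperone genes are long, with a median of 26.1 kb and 32.5 kb against 24.5 kb for all protein-coding genes.

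Those with a window peak in all 3 replicates included H1-10, a linker histone made throughout the cycle, with folds of 3.54, 5.07 and 5.16 (4.59 ± 0.913), and H3-3B, which encodes the replacement histone H3.3, with 3.45, 4.65 and 5.43 (4.51 ± 0.998). H2BK1, another H2B gene outside the clusters, had 3.51 ± 0.303. Among chaperones, CABIN1 of the HIRA complex had 4.92 ± 1.46 and MCM2, a helicase subunit that carries H3-H4, had 4.69 ± 0.942. ERI1, an exonuclease that trims the histone mRNA stem-loop, had 4.82 ± 0.606 and LSM10 of the U7 particle, which cuts histone pre-mRNA, had 3.84 ± 0.647. SLBP, the stem-loop binding protein, and NPAT, the activator of histone gene transcription, had no window peak in any replicate, with the nearest at 6.669 kb and 303.989 kb. Of the 8 other protein-coding genes inside the cluster spans, only HFE had a window peak, in replicate 1 (fold 4.08).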

How the data were processed

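Peak tables of 3 AcNEIL1 ChIP libraries of HCT116 cells were analysed. The 3 inputs entered only as the caller's control. Peaks were called by the authors with MACS 2.1.1.20160309 for each replicate on its own, at a q-value of 0.05 and with at most 2 tags per position, in hg38, per the file headers. The submitters' processing notes name Bowtie2, SAMtools, bedtools, Trim Galore, cutadapt, FastQC and MACS2 without a role for each. What was done with reads that map to several places is not given in the sources used here.

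Deposited signal values give the pileup at the summit in extended tags. The deposited fold is a ratio of pileup to local background. The deposited -log10 values are the caller's p and q. All 3 are the authors' values per peak and served only to describe or filter peaks within a list, and the local background was recovered from pileup and fold. A list holds only peaks past the caller's cutoff, so a gene without a peak is one where none was detectable at this depth. Input depth was 32877739, 37772127 and 33606858 tags.

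Peaks on chromosomes 1 to 22 and X (39789, 60075 and 49609) were intersected at 1 bp with gene bodies extended by 5 kb, using RefSeq GRCh38.p14 coordinates (Python 3.11.15, pandas 2.3.3, NumPy 2.4.6, SciPy 1.17.1). The counting was run on simulated data with peaks planted at the start of 200 of 19821 genes, and it recovered all 200. This checks the overlap code only and gives no rate of false calls. Conditions did not vary, so differences between gene sets were tested over the 3 replicates by an exact sign-flip permutation test.

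Named are histone genes with a peak within 1 kb in any replicate or within 5 kb in 2 or more, the gene farthest from a peak in each cluster, and up to 8 listed genes with peaks in all 3 replicates by mean fold, with SLBP and NPAT; 1 of these is not reported here. Genes named with a peak in 1 replicate between 1 and 5 kb, and H2BC18, H3C13, H1-6 and HFE, were chosen after their values were seen. Of 26 replication-independent histones listed, 24 matched a symbol. Membership follows from gene symbols, but this gene family and the lists were chosen for study with earlier results of these data known. Alternatives were other peak thresholds, overlaps, windows, cluster limits, replicate rules and leaving out each replicate.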

Additional observations from a re-analysis of the deposited data

How the results depend on the processing

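The mean difference of chromosome 6 from the chromosome 1 cluster stayed below 0 under the 13 alternatives run (-51.8 to -2.42 points; -51.8 to -40.0 leaving out a replicate), but without the 6 inverted copies it was -3.03 and above 0 in 2 of 3 replicates. Of 14 histone genes called, 4 were left with a -log10 q of 5 or more, 0 with the 5000 strongest peaks, 4 with a 1 kb and 22 with a 10 kb window. Called in at least 1 replicate were 27, in all 3 were 8, and without the 6 inverted copies 8; leaving out a replicate gave 9 to 11. The ratio of the histone genes' called share to that of all protein-coding genes was 0.529. It was 0.262 with a -log10 q of 5 or more, 0 with the 5000 strongest peaks, 0.193 with a 1 kb window, 0.769 in at least 1 replicate, 1.43 against all genes up to 1000 bp, histone genes included, and 0.969 there without the inverted copies; leaving out a replicate gave 0.391 to 0.528. Ends minus spacer, -0.350 points, turned to 0.212 on chromosome 6 alone and to 0.102 with neighbours under 1 Mb apart joined, and shrank to -0.0429 with 2 kb ends and to -0.0430 with the 5000 strongest peaks (exact p = 1 for both); leaving out a replicate gave -0.513 to -0.170. The chromosome 6 spacer in these settings includes bodies of other protein-coding genes. Shared regions, 24.3%, fell to 0 of 3 with the 5000 strongest peaks and to 14.8% to 17.2% leaving out a replicate. Replication-independent histones (5 called) gave 3 with a -log10 q of 5 or more, 1 with the 5000 strongest peaks, 2 within 1 kb, 8 within 10 kb and 8 in at least 1 replicate, and 4 to 5 leaving out a replicate. Processing genes (4) gave 2, 1, 1 and 7 under the first 4 of these settings, 2 in all 3 replicates and 2 to 3 leaving out a replicate. Chaperones (4) gave 2 with the 5000 strongest peaks, 1 within 1 kb, 7 within 10 kb, 7 in at least 1 replicate and 3 to 4 leaving out a replicate. Wider windows and looser rules admit more genes by construction. Stricter peak cutoffs, the 1 kb window and the rule of all 3 replicates can only lower the counts of called genes. Leaving out a replicate asks for a peak in both of the others, which also can only lower these counts. The cause of the other changes was not tested. Of these settings, those without the inverted copies and the limit to genes up to 1000 bp were chosen after seeing the data. No paired analysis was possible because the input libraries have no values of their own. The weakest peak in the clusters had a pileup of 11 tags, and weaker signal was not detectable in these lists.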
